A study of Rattus norvegicus with 10 samples.

Results

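The cytosolic ribosome is the machine that translates messenger RNA into protein, and it is built from ribosomal RNA and a set of ribosomal proteins, named Rpl for the large subunit and Rps for the small subunit. Their mRNAs are abundant in every cell, and in neurons they are also found in dendrites, where proteins are made close to synapses. Most of them begin with a cytosine followed by a stretch of pyrimidines, the terminal oligopyrimidine (TOP) tract, through which the kinase mTOR and the RNA-binding protein Larp1 control their translation.

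These genes were examined in the hippocampus of male Wistar rats of the C-group, given a chow diet (solid feed), and of the P-group, given a powdered diet, for 8 days, with 5 arrays in each group. The rats of both groups had been acclimatized on powdered feed after weaning, and the labels give their age as 4 weeks. The comparison asks whether the hippocampal transcriptome differs between rats that chewed solid feed and rats with less mastication. Total RNA from the hippocampus was labeled, 100 ng for each Affymetrix Rat Genome 230 2.0 array. The members were all probe sets annotated with exactly 1 gene symbol formed from Rpl or Rps and a digit, together with Rplp0, Rplp1, Rplp2 and Rpsa, without the Rps6k kinases and symbols ending in l1. There were 53 such probe sets for 47 genes, of 31042 probe sets on the array. No probe set carried Rplp1 or Rplp2 as its only symbol. The members comprised 31 probe sets of 28 large subunit genes, 17 of 14 small subunit genes, 1 of the stalk protein gene Rplp0, 2 of the paralogs Rpl3l and Rps27l, and 2 with the pseudogene symbols Rpl37-ps2 and Rps4x-ps1. The gene identifier of 51 of the 53 probe sets was found in the RefSeq table, with no change of symbol.

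The values were log2 expression levels from qFARMS, a factor analysis method that leaves a probe set nearly constant where its probes do not vary together. Of the 53 member probe sets, 8 varied over the 10 rats with a standard deviation (SD) above 0.01 log2 units (15.1%), against 2904 of all 31042 probe sets (9.36%). The lowest SD among these 8 was 0.0694 and the highest among the other 45 was 0.000438, so no member lay near the threshold. The 45 constant probe sets had means between 5.52 and 12.27 and differences between the groups from -0.000374 to 0.000256 log2 units, and are not described further. The 8 variable ones were Rpl4, Rpl6, Rpl11, Rpl19, Rpl24, Rpl34 and Rpl35 of the large subunit and Rps24 of the small subunit. Their median SD was 0.117 log2 units, against 0.219 for all variable probe sets. They are annotated on 8 different chromosomes.

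**Figure D1:**
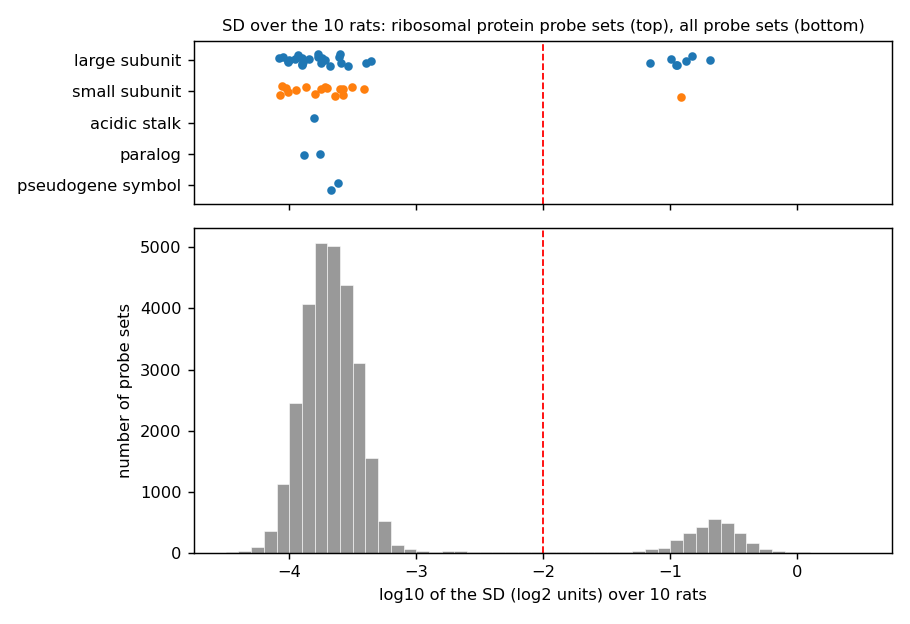
SD of each probe set over the 10 rats, as log10 of the SD in log2 units on the horizontal axis. The upper panel shows the 53 ribosomal protein probe sets by role and the lower panel the number of probe sets among all 31042, with the dashed line at an SD of 0.01, and 7 large subunit probe sets and 1 small subunit probe set lie to its right.

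The bases around the annotated start of these 8 genes are shown because the TOP tract lies there. Each line gives 20 bases before and 10 bases from the start on, 5′ to 3′ on the strand of the gene, from RefSeq on assembly GRCr8, with the longest unbroken run of C and T in capitals.
Rpl4, chr8:73566457-73566486, plus strand: agtgataagTTCTTCCTTTTCCTgtgggag
Rpl24, chr11:58128396-58128425, minus strand: gaagggaatttagggaggagaTTCTCTacc
Rpl6, chr12:41011681-41011710, minus strand: ttgtgtaTTTTTacatcactagatggcggg
Rpl34, chr2:221962274-221962303, minus strand: gcccgCCCCTTCCTTTTCCTCTTCCgggga
Rpl11, chr5:153560793-153560822, minus strand: gCCCaggggacttgaagcttgtttggtgct
Rpl35, chr3:43165912-43165941, minus strand: ggccccgCCCCTTCCTCTTTCTCTCgaacc
Rps24, chr16:96497-96526, plus strand: ggcagtgagcggTCCTCTTTTCCTCCTTTa
Rpl19, chr10:83519044-83519073, plus strand: gagcccgcgaccagcaagCTCTTTCCTTTC
The run was 20 bases long for Rpl34, 18 for Rpl35, 17 for Rps24, 14 for Rpl4 and 12 for Rpl19, and in these 5 genes it spanned the annotated start. It began before the start, at position -15 for Rpl34, -13 for Rpl35, -8 for Rps24, -11 for Rpl4 and -2 for Rpl19. Only the bases from the start on can belong to a TOP tract, so these lengths are not tract lengths. The run of Rpl19 reached the end of the window and may be longer. The annotated start was T in Rps24 and C in the others of these 5 genes. The run was 6, 5 and 3 bases long for Rpl24, Rpl6 and Rpl11, whose annotated starts are A, A and G. A run of at least 8 was found in this window for 25 of the 40 member genes with a promoter in the table (62.5%), against 12.1% of all 27457 promoters, and the median run was 9 bases against 4. The other 7 member genes were not in the table.
In the wider window, from 250 bases before to 50 bases after the start and on both strands, the letters GGGCGG of an Sp1 site were found in 26 of the 40 genes (65%, against 34.9% of all promoters). The letters CCGGAAG of an Ets factor site were found in 8 (20%, against 9.22%) and AAGATGG of a YY1 site in 8 (20%, against 7.3%), and the last pair can share the letters AAG. Of the 8 variable genes, Rpl11, Rpl34 and Rpl35 held both GGGCGG and CCGGAAG, and none held AAGATGG.

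Before the members are compared, rat C1 is described, because it stood apart from the other rats. Of the 2904 variable probe sets, 53.5% were highest and 22.1% were lowest in C1. Choroid plexus markers, with 19 of 27 probe sets variable, averaged from 6.82 to 9.03 in the C-group and from 6.71 to 8.60 in the P-group, and C1 was the highest at 9.03, followed by C5, P3 and C2 at 8.64, 8.60 and 8.44. Photoreceptor and pineal markers averaged 8.60 in P2 and from 6.16 to 6.23 in the other 9 rats. Hippocampal neuron markers, with 13 of 21 probe sets variable, averaged from 9.13 to 9.39 in the C-group and from 9.06 to 9.28 in the P-group. Astrocyte markers, with 4 of 13 probe sets variable, lay from -0.06 to 0.34 around their 10-rat mean in the C-group, with C1 highest. In the P-group they lay from -0.26 to 0.21. Of the 4 probe sets, 3 were called higher in the C-group, and the one for Gfap differed by -0.15 log2 units. Markers of meninges and vessels, with 5 of 12 variable, averaged from 8.08 to 8.49 in the C-group and from 7.67 to 8.46 in the P-group, and 4 of the 5 were called higher. All 19 variable choroid plexus probe sets were called higher, and 6 of 11 photoreceptor and pineal ones were called lower. Of the hippocampal neuron probe sets, 3 were called higher, all of the gene Zbtb20, and 1 lower, of Neurod6. Another variable probe set of Zbtb20 differed by -0.02 log2 units. None of the oligodendrocyte, microglia, blood and thalamus probe sets was called. These calls are from rank products (FDR under 0.05), which called 21.3% of all variable probe sets higher and 4.44% lower. The values carry no detection call, so the presence of a marker was not tested. Differences below are given with and without C1.

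All 7 variable large subunit genes had a higher mean in the C-group, by 0.03 to 0.17 log2 units. For the small subunit gene Rps24, the variable probe set had a lower mean in the C-group (6.81 against 6.89). Its other probe set was constant at 11.35. Rpl4 and Rpl34 were the only members that passed rank products as run here, a method the study also used. No member passed limma, which weighs a difference against the spread between rats. The whole pattern was led by rat C1, in which the 7 large subunit genes were highest and Rps24 was lowest. In a whole tissue, a change in the number of cells of a type and a change of RNA per cell cannot be told apart.

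Rpl4 encodes a large subunit protein that lines the tunnel through which the growing peptide leaves the ribosome. Its log2 value was 11.57, 11.47, 11.21, 11.34 and 11.36 in C1 to C5, against 11.30, 11.19, 11.23, 11.18 and 11.17 in P1 to P5. Of the C-group rats, 4 lay above every P-group rat, and C3 lay among them, so the groups overlapped. The C-group mean was 11.39 ± 0.14 and the P-group mean 11.22 ± 0.06 (SD, n = 5 each). The difference was 0.17 log2 units with a standard error of 0.06, a ratio of 1.13, with a rank products FDR (false discovery rate) of 0.0231 and an adjusted p of 0.927 from limma. Without C1 the difference was 0.13 (standard error 0.05) and Rpl4 was not called (FDR 0.0736), nor was it without C2, C4 or C5 (FDR 0.0742, 0.0632 and 0.0556).

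Rpl34, another large subunit gene, had values of 11.94, 11.73, 11.63, 11.70 and 11.72 in C1 to C5, against 11.60, 11.66, 11.68, 11.64 and 11.57 in P1 to P5. Again 4 C-group rats exceeded all P-group rats and C3 did not. The C-group mean was 11.74 ± 0.12 and the P-group mean 11.63 ± 0.04 (SD, n = 5 each), with a difference of 0.11 (standard error 0.05, FDR 0.048 from rank products, adjusted p = 0.927 from limma). Without C1 it was 0.06 (standard error 0.03, FDR 0.14). The call was also lost without C2, C4 or C5 (FDR 0.127, 0.113 and 0.119) and without P1, P4 or P5 (FDR 0.0682, 0.0567 and 0.0863).

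Rpl24 encodes a large subunit protein that reaches toward the small subunit and joins the ribosome late in its assembly. It measured 11.44, 11.18, 10.94, 11.10 and 11.16 in C1 to C5, against 11.10, 11.02, 10.997, 10.99 and 10.98 in P1 to P5. C1 was the highest rat and C3 the lowest, so the P-group lay within the range of the C-group. The difference was 0.15 (standard error 0.08, FDR 0.0666, adjusted p = 0.927 from limma), and it was 0.08 without C1 (standard error 0.05). Rank products called Rpl24 only when C3 (FDR 0.0356) or P1 (FDR 0.0434) was left out or when rats were matched by replicate number (FDR 0.0473).

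Rpl6, a large subunit gene, showed the clearest case of a single rat. It was 11.70 in C1 and 11.02, 11.03, 11.16 and 11.10 in C2 to C5, against 11.09, 11.17, 11.13, 10.98 and 11.05 in P1 to P5. C1 exceeded the mean of the other 9 rats by 0.62, while those 9 spanned 0.19. The difference of 0.12 (standard error 0.13) became -0.0088 (standard error 0.05) without C1.

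Rpl11 encodes a protein that, when not built into ribosomes, binds Mdm2 and so links ribosome assembly to p53. It was 11.69, 11.52, 11.34, 11.61 and 11.46 in C1 to C5, against 11.47, 11.32, 11.39, 11.48 and 11.45 in P1 to P5. C1, C4 and C2 were the 3 highest rats, and C3 was near the low end of the P-group. The difference was 0.10 (standard error 0.07, FDR 0.093) and without C1 it was 0.06 (standard error 0.06).

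Rpl35, whose protein sits near the exit of the peptide tunnel, was 11.78, 11.50, 11.39, 11.54 and 11.52 in C1 to C5, against 11.51, 11.39, 11.49, 11.44 and 11.46 in P1 to P5. Apart from C1, the groups covered nearly the same range. The difference was 0.09 (standard error 0.07) and it was 0.03 without C1 (standard error 0.04).
Rpl19, whose protein forms part of a bridge between the subunits, had the smallest spread of the 8 genes. It was 12.26, 12.06, 12.03, 12.11 and 12.09 in C1 to C5, against 12.08, 12.03, 12.16, 12.10 and 12.04 in P1 to P5. Only C1 lay above the P-group. The difference was 0.03 (standard error 0.04) with all rats and -0.0096 (standard error 0.03) without C1.

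Rps24, a small subunit gene altered in some human patients with Diamond-Blackfan anemia and the only variable small subunit member, had its lower mean in the C-group. Its variable probe set was 6.57, 6.81, 6.93, 6.80 and 6.92 in C1 to C5, against 6.73, 6.88, 6.95, 6.96 and 6.91 in P1 to P5. C1 was the lowest rat and P1 the next lowest. The C-group mean was 6.81 ± 0.14 and the P-group mean 6.89 ± 0.09 (SD, n = 5 each), with a difference of -0.08 (standard error 0.07) that was -0.02 without C1. The other probe set of Rps24 was constant at 11.35 in both groups, so the 2 probe sets of this gene did not behave alike. Of the other members, Rpl14, Rpl3, Rpl7 and Rpsa had several probe sets each, all of them constant.

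**Figure D2:**
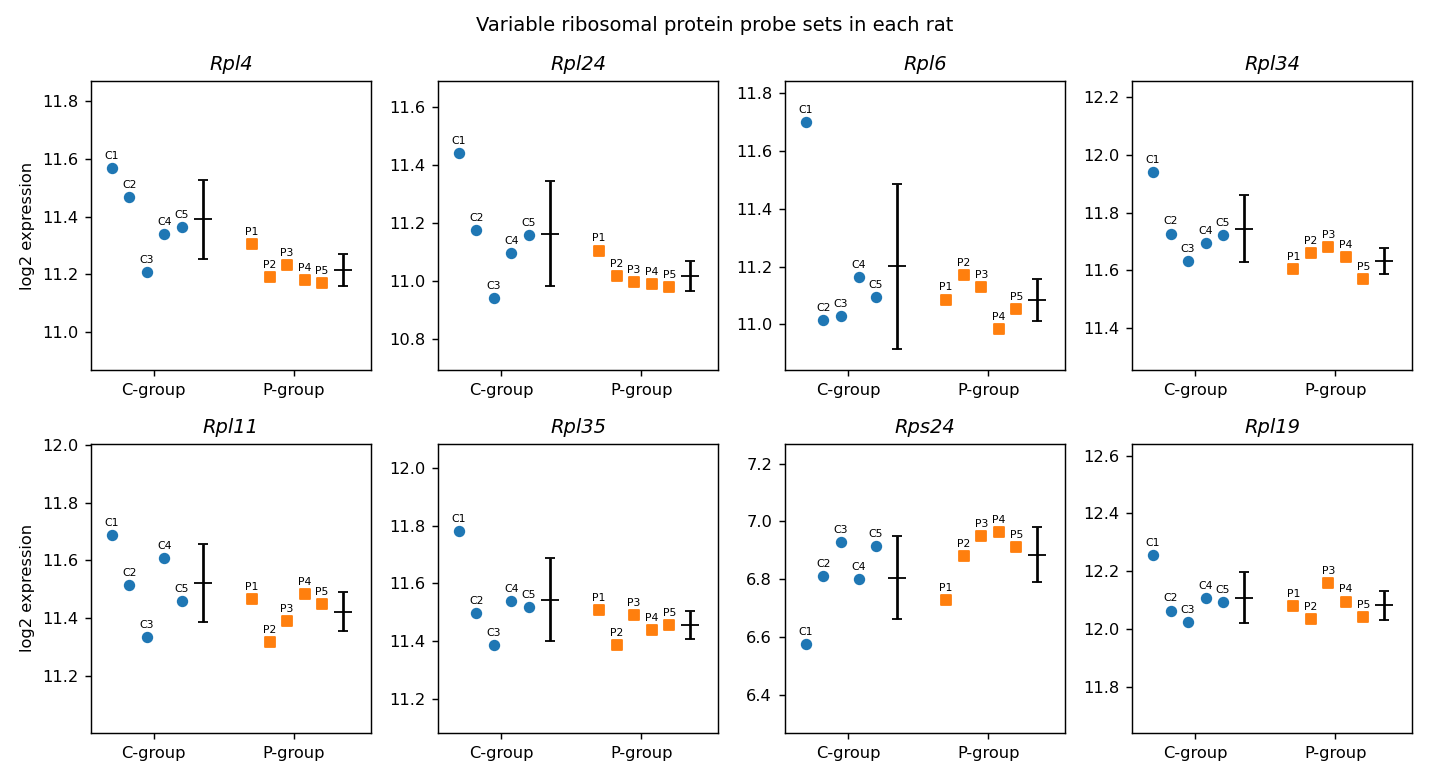
Log2 expression of the 8 variable ribosomal protein probe sets in each rat, ordered by the size of the difference, with C-group rats as blue circles on the left and P-group rats as orange squares on the right. Bars in black mark the mean and SD of the 5 rats, and all panels span the same number of log2 units. C1 is the highest rat in the 7 large subunit genes and the lowest in Rps24, and the groups overlap in every panel.

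Of the 53 member probe sets, rank products called 2 higher in the C-group (3.77%), against 2.0% of all 31042 probe sets, and none lower, against 0.416%. Since all calls lay among the variable probe sets, the nearer background is 21.3% called higher and 4.44% called lower of 2904 variable probe sets, against 2 (25%) and 0 of 8 variable members. The share of members called was thus near that of all variable probe sets. This background itself rested on single rats. Without C1, 2.10% of the variable probe sets were called higher and 5.65% lower, and over all 10 ways to leave out 1 rat the shares ran from 2.10% to 27.2% higher and from 0.344% to 7.61% lower. limma called 0 members and 0.00% of all probe sets. At an unadjusted p under 0.05 limma passed 3 members, 1 of them variable (Rpl4), against 2.95% of all probe sets and 1.14% of the variable ones. The smallest adjusted p of a variable member was 0.927 with all rats and ranged from 0.254 to 0.999 over the alternatives.

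The median difference of the 8 variable members was 0.11 log2 units, against 0.07 for all variable probe sets, and 87.5% of the members lay above 0 against 68.3%. Without C1 the median of the members was 0.04, against 0.04 for all variable probe sets, and 5 of the 7 large subunit genes were above 0, against 67.6% of all variable probe sets. The shift toward the C-group was shared with the variable probe sets as a whole.

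**Figure D3:**
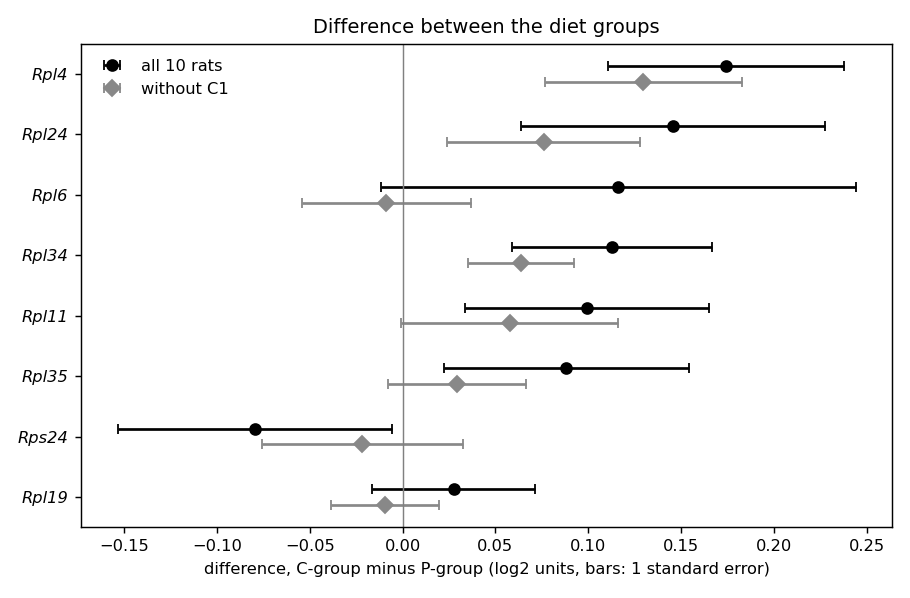
Difference between the C-group and the P-group in log2 units for the 8 variable members (points) with 1 standard error from limma (bars), with all 10 rats (black circles) and without C1 (grey diamonds). Every point lies closer to 0 without C1, and Rpl6 and Rpl19 change sign.

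Across rats, C1 deviated from the 10-rat mean of the 7 large subunit genes by 0.30 log2 units on average, with single genes from 0.16 to 0.56. The next rat was C4 at 0.04, above the mean in all 7 genes. C3 at -0.10 and P5 at -0.08 were below the mean in all 7. C2 and C5 were both at 0.02, and P1, P2, P3 and P4 at -0.02, -0.07, -0.03 and -0.07. The rats highest in choroid plexus markers, C1, C5, P3 and C2, thus lay at 0.30, 0.02, -0.03 and 0.02 for the large subunit genes. The part of the choroid plexus markers in these values was not tested. The SD was larger in the C-group than in the P-group for all 8 variable members (0.09 to 0.29 in the C-group and 0.04 to 0.09 in the P-group), as it was for 75.2% of all variable probe sets. Without C1 it was larger in the C-group for 4 of the 7 large subunit genes.

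The variable members varied together over the 10 rats, but largely through C1. No share for pairs of other variable probe sets is given here, and C1 was the highest rat in 53.5% of all variable probe sets. The counts of pairs below are therefore not particular to ribosomal protein genes as far as shown. Of the 28 pairs of genes, the 21 pairs within the large subunit had Pearson's r from 0.62 to 0.95, and 19 of them had an adjusted p under 0.05 (permutation test, adjusted over the 28 pairs, p from 0.0025 to 0.063 in these 21). Spearman's rho, which does not weigh how far C1 lay from the rest, was from 0.05 to 0.89, and 1 of the 21 pairs passed (permutation test, adjusted p from 0.034 to 0.89). Without the 2 rats farthest from the median of the gene with the larger absolute difference in each pair, r ran from 0.02 to 0.91. The pair that passed both tests was Rpl4 and Rpl24, with r = 0.95 (adjusted p = 0.0025, permutation test) and rho = 0.89 (adjusted p = 0.034, permutation test). For this pair r was 0.91 without the 2 farthest rats, 0.93 without C1, 0.96 within the C-group and 0.91 within the P-group. Rpl6 stood at the other end. Its r with Rpl11 was 0.62 over all rats and -0.07 without C1, so that relation rested on C1. Rps24 had r from -0.86 to -0.61 with the 7 large subunit genes and from -0.61 to 0.09 without C1, and its rho passed in none of the 7 pairs.

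The genes around the ribosome did not follow one pattern. Of 54 translation factor genes listed, 47 were measured with 75 probe sets, and 10 probe sets of 7 genes varied. All 10 had a higher mean in the C-group, with a median difference of 0.11 log2 units, and 6 were called higher by rank products, for Eif3a, Eif3c, Eif3l, Eif4g1 and Eif5b (background 21.3% of variable probe sets). None passed limma. Without C1 or without C2 none of the 10 was called, and without any other single rat 3 to 6 were. Eif3a, Eif3c and Eif3l encode subunits of the initiation factor that binds the small subunit, Eif4g1 the scaffold of the cap-binding complex, and Eif5b the factor that joins the subunits.
Eif4g1 was 8.27, 7.79, 7.54, 7.47 and 7.28 in C1 to C5, against 7.99, 7.44, 7.40, 7.07 and 7.04 in P1 to P5 (difference 0.28, standard error 0.23, FDR 0.0125, and 0.13 without C1). Eif3c was 9.29, 9.28, 8.86 and 8.74 in C1, C2, C4 and C5, with C3 between C2 and C4, against 9.06, 8.66, 8.94, 8.63 and 8.52 in P1 to P5 (difference 0.27, standard error 0.15, FDR 0.0165, and 0.21 without C1). These are the probe sets of Eif4g1 and Eif3c with the larger difference. Another variable probe set of each differed less, by 0.08 (standard error 0.06) for Eif4g1 and 0.10 (standard error 0.12) for Eif3c. Eif3a differed by 0.26 (standard error 0.21, FDR 0.0165), and by 0.13 without C1. In both genes with values shown, C1 and P1 were the highest rats of their groups, whereas the large subunit genes averaged 0.30 above the mean in C1 and 0.02 below it in P1. C1 was highest in 9 of the 10 probe sets, and without it all 10 differences stayed above 0, with a median of 0.09. In C1 to C5 the translation factors deviated from their mean by 0.34, 0.15, 0.03, -0.01 and -0.10. In P1 to P5 they deviated by 0.10, -0.08, -0.05, -0.16 and -0.21. For the astrocyte markers the values were 0.34, 0.13, -0.03, 0.03 and -0.06 in C1 to C5. They were 0.21, -0.04, -0.11, -0.26 and -0.21 in P1 to P5. Oligodendrocyte markers lay at -0.17, -0.11, 0.07, 0.20 and 0.03 in C1 to C5. In P1 to P5 they lay at -0.21, -0.00, 0.00, 0.05 and 0.15. The part of these markers in the values of the translation factors was not tested.

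Mitochondrial ribosomal proteins, which serve the separate ribosome of that organelle, were measured for 73 genes with 97 probe sets, of which 10 varied. Of these, 4 had a higher and 6 a lower mean in the C-group, with a median difference of -0.05 log2 units. Mrpl50 was called lower (background 4.44% of variable probe sets), and none passed limma. Mrpl50 was 6.67, 7.46, 7.52, 7.57 and 7.51 in C1 to C5, against 7.76, 7.62, 7.47, 7.71 and 7.89 in P1 to P5 (difference -0.34, standard error 0.18, FDR 0.00471). Without C1 the difference was -0.17 and the call held (FDR 0.0105), and it was lost without P4 or P5 (FDR 0.0622 and 0.0663). Mrps28 and Mrpl3 differed by -0.22 (standard error 0.20) and -0.17 (standard error 0.17), with C1 at 6.95 and 8.72, below all other rats, and by -0.02 and -0.01 without C1. C1 was the lowest rat in 5 and the highest in 5 of the 10 mitochondrial probe sets, and on average it lay 0.27 log2 units below their mean. Without C1 their median difference was -0.01.

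**Figure D4:**
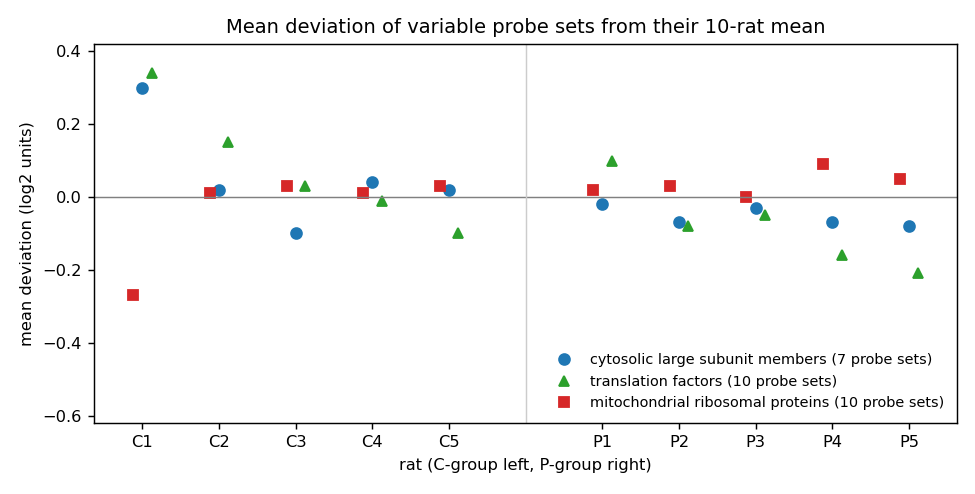
Mean deviation of the variable probe sets from their 10-rat mean, in log2 units, for the cytosolic large subunit members (blue circles, 7 probe sets), translation factors (green triangles, 10) and mitochondrial ribosomal proteins (red squares, 10). Rats of the C-group are on the left and of the P-group on the right, and C1 lies at 0.30, 0.34 and -0.27 for the 3 lists, the value farthest from 0 in each.

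Genes of ribosome assembly varied in 2 of 58 probe sets (44 genes measured). Nolc1, a nucleolar protein gene, was called higher in the C-group, with a difference of 0.24 (standard error 0.12, FDR 0.0249, background 21.3% of variable probe sets, adjusted p = 0.927 from limma). Without C1 the difference was 0.16 and the call was lost (FDR 0.0934), as it was without C2, C4 or P5 (FDR 0.0664, 0.0658 and 0.0554). It was 7.76, 7.48, 7.38, 7.41 and 7.18 in C1 to C5, against 7.51, 7.19, 7.15, 7.16 and 7.02 in P1 to P5. Rrp1, needed for ribosomal RNA processing in yeast, differed by -0.21 (standard error 0.16, FDR 0.0799), with 7.72 in C1 and at least 8.43 in every other rat, and by -0.05 without C1. It was called lower without C3 or C5 (FDR 0.0432 and 0.0368).
A broad list around the control of ribosomal protein mRNA translation, which also held Myc, Mycl, Mycn and Rictor, had 23 measured genes. Only Larp1, whose protein binds the caps of TOP mRNAs, had a variable probe set, 1 of 40. The ID of this probe set marks it as able to cross-hybridize. Larp1 was 7.15, 8.65, 8.71, 8.82 and 8.78 in C1 to C5, against 8.65, 8.92, 8.75, 8.80 and 8.83 in P1 to P5. It was called lower in the C-group, with a difference of -0.37 (standard error 0.31, FDR 0.0322, background 4.44% of variable probe sets, adjusted p = 0.927 from limma). C1 was the only rat outside the range from 8.65 to 8.92, and without it the difference was -0.05 and the call was lost (FDR 0.269). The call was also lost without P2, P3, P4 or P5 (FDR 0.157, 0.067, 0.115 and 0.169). Larp1 was thus lowest in the rat with the highest large subunit values, and the part of the one in the other was not tested. Of the ribosomal proteins outside the rule, Rack1 and Rpl7l1 were measured, with 3 constant probe sets.

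**Figure D5:**
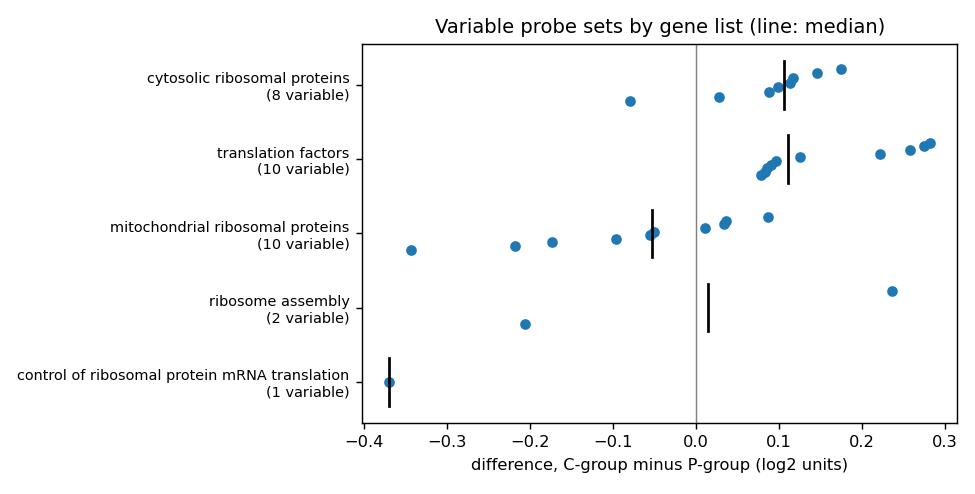
Difference between the C-group and the P-group in log2 units for each variable probe set of the cytosolic ribosomal proteins (8), translation factors (10), mitochondrial ribosomal proteins (10), ribosome assembly (2) and control of ribosomal protein mRNA translation (1), with the median as a black line. The medians of the first 3 lists are 0.11, 0.11 and -0.05, and all 10 translation factor probe sets lie above 0.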

How the data were processed

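The authors normalized and summarized 10 Affymetrix Rat Genome 230 2.0 arrays with qFARMS in R 2.7.2 and deposited log2 values for 31099 probe sets. The 57 control probe sets were left out. Array medians lay between 7.00 and 7.02 and no columns were identical. The labels number the arrays of a group without naming animals, so p-values of limma and of the correlations cover the spread between these arrays. The rank products FDR comes from permuting values within arrays and does not measure that spread. Arrays give no read depth, and their number limits the precision.
Rank products, the method of the study, was run unpaired on all 31042 probe sets (25 differences, 100 permutations within arrays, FDR under 0.05 in each direction), because the sources used here do not give the pairing. Its calls are those of this run and can differ from the list of the study. limma 3.58.1 in R 4.3.3 (lmFit, eBayes, Benjamini-Hochberg over all probe sets) gave standard errors and adjusted p-values. Both were run on simulated data with larger shifts than those of the members and with no outlying rat. Their performance at differences as small as those of the members was not tested. Correlations used 100000 permutations. Python 3.11.15, numpy 2.4.6 and pandas 2.3.3 were used. Gene symbols came from the platform annotation. Sequences came from RefSeq (GRCr8), and no build is named for the values.
Every variable member is named, and up to 3 variable probe sets with the largest difference of each other list. The members and lists were chosen with earlier results of these data known. Alternatives changed the SD threshold, normalization, pairing, filter, variance model, permutation draw, probe sets counted and arrays used.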

Additional observations from a re-analysis of the deposited data

Results flagged for a closer look

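Of 34 groups of 5 rats (17 probe sets in each diet group), 6 held a rat whose gap to its nearest neighbour, as a share of the range of the group, was above 0.71, the critical value of Dixon's test, which chance exceeds in about 1 of 20 groups. That rate does not hold here, since 9 of the 17 probe sets were named for their large difference between the groups and the probe sets share the same rats. The rat was C1 in each. In Rpl6, C1 was at 11.70 and the other C-group rats between 11.02 and 11.16, a share of 0.785. In Mrpl50 it was at 6.67 and the others between 7.46 and 7.57 (0.879). In Mrps28 it was at 6.95 against 7.81 to 8.02 (0.804). In Mrpl3 it was at 8.72 against 9.43 to 9.71 (0.715). In Rrp1 it was at 7.72 against 8.44 to 8.57 (0.844). In Larp1 it was at 7.15 against 8.65 to 8.82 (0.898). C1 was thus high in the cytosolic gene and low in the other 5.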

How the results depend on the processing

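Variable members numbered 8, and 14 after quantile normalization of the deposited values, which adds spread to constant probe sets, or 15 with probe sets of several symbols (chosen after seeing the data). Calls higher in the C-group numbered 2, against 1 with quantile normalization and 0 when only the variable probe sets were ranked, where 9 probe sets in all were called higher. They ranged from 0 to 3 with 1 rat left out, with none without C1, C2, C4 or C5 and 1 without P4 or P5. No member was called lower or passed limma under any alternative run. The median difference ranged from 0.04 to 0.14 with 1 rat left out. The differences of Rpl6 (-0.0088) and Rpl19 (-0.0096) reversed without C1, and leaving out 1 rat they ranged up to 0.16 and 0.0485. The other 102 values of single differences under alternatives kept their direction. With the replicate number as a block, rank products called 2 members, Rpl4 (FDR 0.0378) and Rpl24 (FDR 0.0473), but not Rpl34 (FDR 0.0704), and over all probe sets 912 higher and 338 lower against 620 and 129. Deviations of rats with the same number correlated at 0.28, -0.01, -0.39, 0.49 and 0.45 over the variable probe sets, so same-numbered rats did not all deviate together, and whether the numbers pair the rats was not settled. Signal over background is not in the deposited values.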

Other observations

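A further 36 probe sets carried a ribosomal protein symbol among several symbols and are not named. Of these, 7 varied (19.4%, against 9.36% of all probe sets), 5 with a higher and 2 with a lower mean in the C-group, with differences from -0.43 to 0.13 log2 units. Rank products called 1 of the 7 higher and none lower, against 21.3% and 4.44% of all variable probe sets, and none passed limma (lowest adjusted p = 0.927). C1 was the highest rat in 5 and the lowest in 2 of the 7 probe sets.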
